A study of Mus musculus with 6 samples.

Results

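Activity-induced immediate early genes were described in the hypothalamus of mice labeled as having the transcription factor Slug (Snai2) deleted in cells that express the leptin receptor, and of their controls. The genes were taken by name, and 41 were listed, without use of their values. The value table carried 40 of the 41 on rows with 1 gene symbol, of 21507 genes in all, and Fosl1 was not analysed because its row had several symbols. Cyr61 was found under its current symbol, Ccn1, and Dusp6 had more than 1 row, of which the brightest was kept.

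RNA of the whole hypothalamus was measured on 6 Affymetrix arrays. The 3 arrays labeled ΔLepR are given as Slugfl/fl;LepRCre/Cre mice, which carry a floxed Slug and a homozygous Cre at the leptin receptor gene. The 3 arrays labeled Slugfl/fl are given as mice with the floxed Slug and no Cre. All were males on chow, given by the labels as 8 weeks old, an age that differs from the one in the study's methods. The labels call the driver CreERT2, while the methods describe a Cre knockin, and mice that carry only Cre were not analysed here. The leptin receptor is found in a minority of hypothalamic cells. A deletion driven from it leaves the Slug gene intact in most cells of the tissue, whether or not they express it. How many mice went into each array is not in the labels, and the p-values cover no more than the spread among these 6 arrays.

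Values are log2 expression values. The number of arrays limits their precision. Snai2 itself read 10.36, 9.68, and 10.49 on the arrays labeled ΔLepR, against 3.79, 4.23, and 4.23 on those labeled Slugfl/fl. The log2 fold change, ΔLepR minus Slugfl/fl here and throughout, was 6.09 (SE 0.21, adjusted p = 1.56e-06, limma). The arrays labeled as the deletion thus held the higher value. Which part of the transcript the row reads was not analysed. An exchange of labels between the groups was not tested, and it would turn every direction given below, all of which are those of the labels. Of 15 hypothalamic markers 14 were measured, 10 of them above the median of all genes, among them Pmch and Avp. The Pearson's r between arrays lay between 0.991 and 0.993 over all genes.

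Immediate early genes are transcribed within minutes of a stimulus and need no new protein synthesis. In neurons, calcium entry and growth factor signaling reach them through the factors CREB and SRF, which bind the cAMP response element (CRE) and the CArG box in their promoters. Many encode transcription factors that pass the signal on to slower genes, others act at synapses, and others, such as phosphatases, shut the signal off. Fos is widely used in the hypothalamus as a mark of recently active neurons, and leptin is among the signals known to induce it there.

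Promoter sequences, 250 bases before to 50 bases after a RefSeq start site (GRCm38.p6), were matched for 30 of the 40 genes and not for Nptx2, Sik1, Egr3, Egr1, Vgf, Ier2, Dusp4, Trib1, Arc, and Crem. The 5 shown are examples. They are those of Fos, Nr4a1, Dusp1, and Npas4, which were among the genes highest on Slugfl/fl 3 (below), and of Jun, which lacks the motif. Each runs 5′ to 3′ on the strand of its gene, and capitals mark the CRE half-site TGACG on either strand (written CGTCA where it lies on the other). The windows are chr12:85473640-85473939 (plus strand) for Fos, chr15:101266596-101266895 (plus strand) for Nr4a1, chr17:26508423-26508722 (minus strand) for Dusp1, chr19:4989922-4990221 (minus strand) for Npas4, and chr4:95052173-95052472 (minus strand) for Jun.
Fos: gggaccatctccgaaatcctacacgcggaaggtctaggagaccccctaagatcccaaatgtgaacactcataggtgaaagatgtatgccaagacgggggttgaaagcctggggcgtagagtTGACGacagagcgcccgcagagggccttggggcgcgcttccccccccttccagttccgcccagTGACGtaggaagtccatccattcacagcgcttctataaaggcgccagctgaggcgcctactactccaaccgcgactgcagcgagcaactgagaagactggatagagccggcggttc
Nr4a1: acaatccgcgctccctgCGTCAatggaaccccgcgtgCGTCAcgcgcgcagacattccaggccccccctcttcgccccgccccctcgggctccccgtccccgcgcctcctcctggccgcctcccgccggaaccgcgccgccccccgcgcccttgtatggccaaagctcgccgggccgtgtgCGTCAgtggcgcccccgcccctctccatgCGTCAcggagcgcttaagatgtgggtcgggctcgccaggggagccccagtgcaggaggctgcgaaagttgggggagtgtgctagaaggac
Dusp1: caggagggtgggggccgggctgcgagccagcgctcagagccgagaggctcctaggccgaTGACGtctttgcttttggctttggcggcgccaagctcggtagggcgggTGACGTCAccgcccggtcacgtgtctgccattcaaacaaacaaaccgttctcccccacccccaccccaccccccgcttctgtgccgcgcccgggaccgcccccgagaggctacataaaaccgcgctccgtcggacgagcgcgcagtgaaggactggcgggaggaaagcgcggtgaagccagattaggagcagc
Npas4: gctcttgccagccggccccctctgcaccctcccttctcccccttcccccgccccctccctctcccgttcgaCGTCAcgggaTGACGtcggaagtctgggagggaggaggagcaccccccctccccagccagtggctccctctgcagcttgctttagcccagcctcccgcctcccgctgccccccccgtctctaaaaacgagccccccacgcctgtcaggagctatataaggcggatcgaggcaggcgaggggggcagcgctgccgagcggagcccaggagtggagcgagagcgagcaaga
Jun: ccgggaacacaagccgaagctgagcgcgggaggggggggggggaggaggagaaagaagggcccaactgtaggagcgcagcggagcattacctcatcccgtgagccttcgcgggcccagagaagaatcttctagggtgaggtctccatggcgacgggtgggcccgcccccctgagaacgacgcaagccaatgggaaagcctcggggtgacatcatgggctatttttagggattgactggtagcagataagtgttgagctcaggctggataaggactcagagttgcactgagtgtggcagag
Fos held 2 half-sites, the nearer of them 66 to 62 bases before the start. Nr4a1 held 4, Npas4 held 2, and Dusp1 held 3, of which 2 overlap in a full CRE, TGACGTCA. Jun held none in this window.

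Of the 30 genes with a promoter, 20 held the half-site (66.7%), against 23.0% of the 27025 genes with a promoter sequence. Some genes, here Egr2, Homer1, and Maff, had more than 1 start site and window. A gene was counted if any of its windows held the motif, which gives such genes more chances. The full CRE, which contains the half-site, was found in 3 of 30, against 2.03% of genes, those of Btg2, Dusp1, and Maff. The CArG box was found in 4 (13.3%, against 1.81%), those of Dusp5, Egr2, Srf, and Zfp36. Both are the classical elements of activity-dependent transcription. The E2 box CAGGTG, the site known for Slug and its relatives, was found in 5 (16.7%, against 22.6%), those of Egr4, Fosb, Homer1, Maff, and Ptgs2. The EGR site GCGTGGGCG was found in 1, that of Maff (against 0.707%), the TATA box TATAAA in 7 (23.3%, against 15.7%), and the AP-1 site TGACTCA in 0 (against 5.95%). All motifs were searched on both strands, and a match is a description of letters, not a bound site. Bases outside the windows were not searched, so a missing match does not show that a gene lacks the element.

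No immediate early gene passed the study's threshold, an unadjusted p under 0.05 (limma) with a level more than 25% higher or lower. Of 40 genes 0 were called higher (1.44% of all genes) and 0 lower (0.577%), and 0 passed an adjusted p of 0.05 (0.0139%). The smallest adjusted p among them was 0.826 (limma), for Egr3. The methods' t-test also called 0, with 1 of the 40, Egr3, at an unadjusted p under 0.05. An unadjusted p under 0.05 alone was reached by 5 of 40 (12.5%), against 5.85% of all genes. These 5 were Fos, Jun, Egr3, Nr4a1, and Dusp1, all with the lower mean in the arrays labeled ΔLepR and all short of the 25% by which the threshold requires a gene to be lower. With each array left out in turn, only Egr3 kept an unadjusted p under 0.05 every time. Fos lost it without ΔLepR 1 or Slugfl/fl 3, and Jun without ΔLepR 1 or Slugfl/fl 1. Nr4a1 lost it without ΔLepR 1, ΔLepR 2, Slugfl/fl 2, or Slugfl/fl 3, and Dusp1 without ΔLepR 1, Slugfl/fl 2, or Slugfl/fl 3 (limma). In bulk tissue, fewer cells of a type and less RNA per cell cannot be told apart.

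The groups did not overlap for 5 genes. Ptgs2 and Ier3 were higher on all 3 arrays labeled ΔLepR (2 of 40, 5%, against 5.91% of all genes). Fos, Jun, and Egr3 were lower on all 3 (3 of 40, 7.5%, against 5.56%). Both shares are near those of all genes.

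The median log2 fold change of the 40 genes was -0.06, against 0.00 over all genes, and the values ran from -0.37 to 0.33. It was negative for 24 of 40, against 49.3% of all genes. The median rested on single arrays, since it was 0.01 without Slugfl/fl 3 and -0.01 without ΔLepR 1. The median size of the difference, without its sign, was 0.13, against 0.088 for all genes, and the median standard error was 0.13. The 40 genes also spanned more between single arrays than most genes, with a median range over the 6 arrays of 0.49, against 0.38. Among genes brighter than the median of all genes, 4.18, the range was 0.50 for the 24 immediate early genes and 0.34 for all, so the wider range was not limited to dim rows. Of the 40 genes, 15 had both group means below that median, among them Fos, Fosb, Egr2, Egr3, Npas4, Klf4, Ptgs2, Ccn1, Dusp5, and Zfp36.

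**Figure D1:**
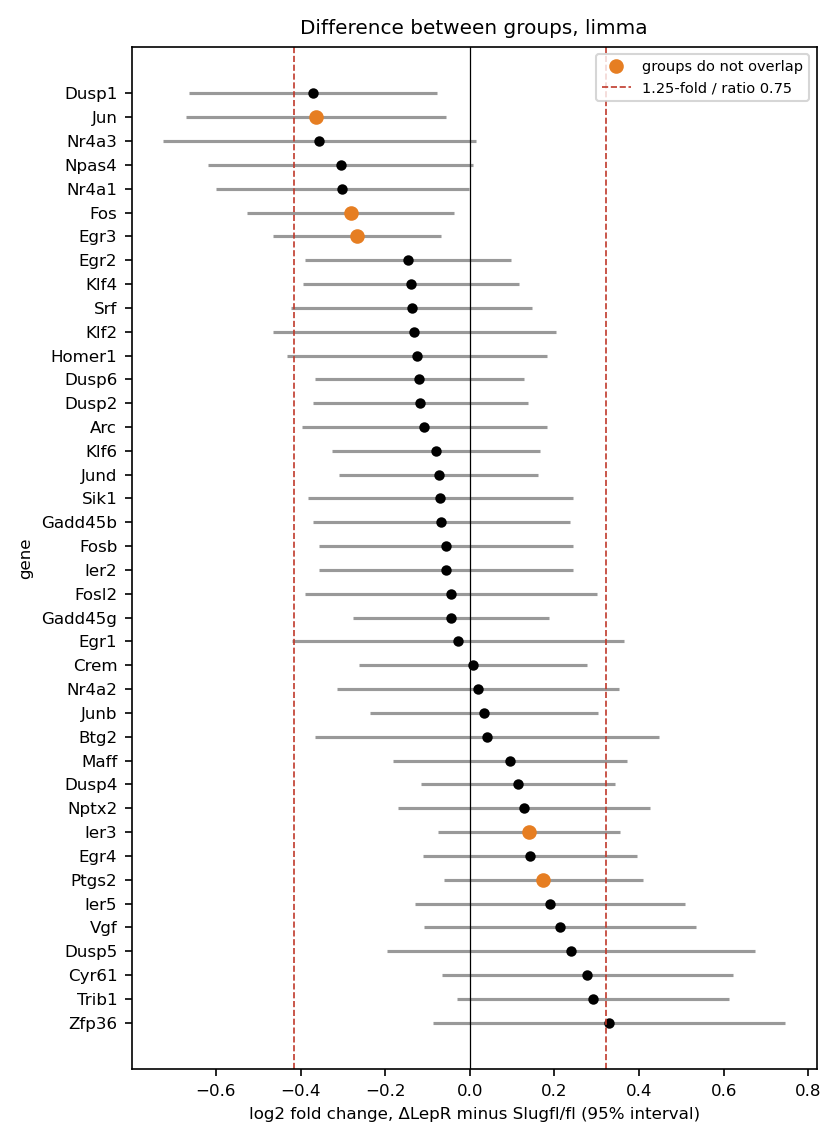
Log2 fold change, ΔLepR minus Slugfl/fl, of each of the 40 genes with its 95% interval from limma (horizontal axis, log2 units), orange where the groups do not overlap and with dashed lines at 25% higher and 25% lower. The estimates run from -0.37 (Dusp1) to 0.33 (Zfp36), and the only estimate past a dashed line, that of Zfp36, has an interval that includes 0.

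The AP-1 genes encode the Fos and Jun proteins, which pair into the dimeric factor AP-1. Fos had values of 3.63, 3.70, and 3.71 on the arrays labeled ΔLepR, against 3.91, 3.82, and 4.15 on those labeled Slugfl/fl. Its log2 fold change was -0.28 (SE 0.11), or 17.8% lower (adjusted p = 0.839, limma). The ΔLepR arrays lay close together and below every Slugfl/fl array, of which the third stood highest, and the exact permutation test gave p = 0.1, the smallest that 3 arrays against 3 allow. Without Slugfl/fl 3 the log2 fold change was -0.19, and without ΔLepR 1 it was -0.26. The values of Fos lay below the median of all genes.

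Jun had values of 5.39, 5.90, and 5.71 on the ΔLepR arrays, against 6.18, 5.97, and 5.95 on the Slugfl/fl arrays (log2 fold change -0.36, SE 0.14, adjusted p = 0.839, limma). The groups did not overlap, but ΔLepR 2 lay just below the lowest Slugfl/fl array, and ΔLepR 1 lay far below the rest. Without ΔLepR 1 the difference was -0.22, and without Slugfl/fl 1 it was -0.29. Unlike Fos, Jun was highest on Slugfl/fl 1.

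Of the remaining AP-1 genes, Fosb had values of 3.04, 2.84, and 2.75 on the ΔLepR arrays, against 2.68, 2.99, and 3.14 on the Slugfl/fl arrays. Junb had values of 4.0, 4.18, and 4.14 on the ΔLepR arrays, against 3.98, 3.94, and 4.31 on the Slugfl/fl arrays. The groups overlapped for both, and both were highest on Slugfl/fl 3, with log2 fold changes of -0.06 and 0.03. Jund was also highest there, at 7.34, while Fosl2 was highest on ΔLepR 1, at 5.32. The median log2 fold change of the 6 AP-1 genes was -0.06, negative for 5 of 6.

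The EGR genes encode zinc finger factors that relay activity to synaptic genes. Egr3 had values of 3.77, 3.79, and 3.74 on the ΔLepR arrays, against 4.07, 4.02, and 4.02 on the Slugfl/fl arrays. Its replicates lay close together in both groups, and the groups were well apart. The log2 fold change was -0.27 (SE 0.089), or 16.9% lower (adjusted p = 0.826, limma; exact permutation test p = 0.1). It stayed between -0.28 and -0.25 with any 1 array left out, each time with an unadjusted p under 0.05 (limma), and the values of Egr3 also lay below the median of all genes.

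Egr1, the best known of the family, had values of 4.15, 4.53, and 4.87 on the ΔLepR arrays, against 4.33, 4.61, and 4.69 on the Slugfl/fl arrays. Its lowest and highest values both belonged to ΔLepR arrays, so the groups overlapped fully (log2 fold change -0.03, SE 0.18, adjusted p = 0.993, limma). Egr2 had a log2 fold change of -0.15 and Egr4 one of 0.14, and neither reached an unadjusted p of 0.05 (adjusted p = 0.892 and 0.895, limma). The EGR genes thus had no common order of arrays.

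The NR4A genes encode orphan nuclear receptors that are induced without a known hormone. Nr4a1 had values of 5.51, 5.41, and 5.61 on the ΔLepR arrays, against 5.59, 5.76, and 6.09 on the Slugfl/fl arrays (log2 fold change -0.30, SE 0.13, adjusted p = 0.839, limma). Nr4a3 had values of 4.06, 3.77, and 3.82 on the ΔLepR arrays, against 3.93, 4.17, and 4.61 on the Slugfl/fl arrays (log2 fold change -0.36, SE 0.17, adjusted p = 0.839, limma). Slugfl/fl 3 was the highest array for both, and Slugfl/fl 1 lay within the ΔLepR values for both. Without Slugfl/fl 3 the differences were -0.16 for Nr4a1 and -0.17 for Nr4a3, and with ΔLepR 1 or Slugfl/fl 1 left out Nr4a3 passed the threshold as lower. Nr4a2 differed by 0.02, with its highest value on Slugfl/fl 1 and its lowest on Slugfl/fl 2.

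Among other transcription factors, Npas4, a factor of neurons that responds to calcium entry, had values of 4.07, 3.71, and 3.67 on the ΔLepR arrays, against 4.0, 4.02, and 4.35 on the Slugfl/fl arrays. ΔLepR 1 lay above both of the lower Slugfl/fl arrays, and Slugfl/fl 3 again stood highest (log2 fold change -0.31, adjusted p = 0.839, limma). Without ΔLepR 1, Npas4 passed the threshold as lower, and without Slugfl/fl 3 its difference was -0.19. Srf, the factor of the CArG box, and Klf4, a Krüppel-like factor, were also highest on Slugfl/fl 3, with log2 fold changes of -0.14 each. The median over the 7 genes of this group, which also held Maff, Crem, Klf2, and Klf6, was -0.13.

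Genes that act at synapses or outside the cell had the opposite median, 0.15, and it was negative for 2 of 6. Arc, which drives the uptake of glutamate receptors at active synapses, had values of 5.46, 5.20, and 5.26 on the ΔLepR arrays, against 5.38, 5.21, and 5.64 on the Slugfl/fl arrays. The groups overlapped, with the highest value on Slugfl/fl 3 (log2 fold change -0.11, SE 0.13, adjusted p = 0.932, limma), and without that array the difference was 0.01. Homer1, a synaptic scaffold, differed by -0.12, and which of its isoforms the row reads was not analysed here.

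Ptgs2, the inducible prostaglandin synthase, had values of 2.60, 2.63, and 2.81 on the ΔLepR arrays, against 2.56, 2.57, and 2.38 on the Slugfl/fl arrays. The groups did not overlap but lay close, and Ptgs2 was the only one of the 40 genes with its lowest value on Slugfl/fl 3 (log2 fold change 0.17, SE 0.10, adjusted p = 0.864, limma), and it was 0.11 without ΔLepR 3 and likewise without Slugfl/fl 3. Its values lay below the median of all genes. Vgf, a precursor of secreted peptides, had values of 7.31, 7.57, and 7.10 on the ΔLepR arrays, against 6.89, 7.15, and 7.29 on the Slugfl/fl arrays. The groups overlapped (log2 fold change 0.21, SE 0.14, adjusted p = 0.884, limma), and the difference was 0.09 without ΔLepR 2, 0.33 without ΔLepR 3, and 0.10 without Slugfl/fl 1.

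Ccn1, a secreted matrix protein that binds integrins, had values of 3.87, 4.45, and 4.05 on the ΔLepR arrays, against 3.70, 3.81, and 4.02 on the Slugfl/fl arrays. The groups overlapped, with ΔLepR 2 far above the rest (log2 fold change 0.28, SE 0.15, adjusted p = 0.855, limma). The difference was 0.11 without ΔLepR 2, and it was 0.41 and passed the threshold without ΔLepR 1. Nptx2, a secreted pentraxin of excitatory synapses, differed by 0.13.

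The genes of signal shutoff were split. Dusp1, a phosphatase that inactivates MAP kinases in the nucleus, had values of 5.85, 5.96, and 6.11 on the ΔLepR arrays, against 6.08, 6.45, and 6.50 on the Slugfl/fl arrays. Its difference was the most negative of the 40 genes (log2 fold change -0.37, SE 0.13, or 22.7% lower, adjusted p = 0.839, limma). The groups overlapped by 1 array, since Slugfl/fl 1 lay just below ΔLepR 3, and Dusp1 passed the threshold as lower without either of these. Dusp2 and Dusp6, phosphatases of the same family, both differed by -0.12, and Dusp4 by 0.11.

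Dusp5 had values of 2.49, 3.18, and 3.14 on the ΔLepR arrays, against 2.82, 2.39, and 2.88 on the Slugfl/fl arrays. The groups overlapped, with a low array in each (log2 fold change 0.24, SE 0.19, adjusted p = 0.899, limma). The difference was 0.46 and passed the threshold without ΔLepR 1, and it was 0.12 without ΔLepR 2, 0.14 without ΔLepR 3, and 0.09 without Slugfl/fl 2. Trib1, a pseudokinase that directs proteins to degradation, had values of 4.38, 4.76, and 4.45 on the ΔLepR arrays, against 4.02, 4.48, and 4.21 on the Slugfl/fl arrays. The groups overlapped (log2 fold change 0.29, SE 0.14, adjusted p = 0.841, limma), and Trib1 passed the threshold as higher without ΔLepR 1 or without Slugfl/fl 2. It was 0.18 without ΔLepR 2 and likewise without Slugfl/fl 1. Sik1, a kinase that restrains CREB coactivators, was highest on Slugfl/fl 3, at 6.28, and differed by -0.07.

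In the group of growth arrest and RNA decay, Zfp36, which binds mRNAs of early genes and speeds their decay, had the widest range of the 40 genes, 0.97. Its values were 3.31, 3.44, and 3.62 on the ΔLepR arrays, against 2.65, 3.31, and 3.42 on the Slugfl/fl arrays (log2 fold change 0.33, SE 0.19, adjusted p = 0.855, limma). Slugfl/fl 1 stood far below all others, and the other Slugfl/fl arrays lay within the ΔLepR range. Without Slugfl/fl 3, Zfp36 passed the threshold as higher, and without Slugfl/fl 1 its difference was 0.09.

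Ier3, an early response gene of cell survival, had values of 5.03, 4.94, and 4.92 on the ΔLepR arrays, against 4.92, 4.74, and 4.81 on the Slugfl/fl arrays. The groups met without overlapping, at ΔLepR 3 and Slugfl/fl 1 (log2 fold change 0.14, SE 0.096, adjusted p = 0.885, limma). Btg2, an antiproliferative factor, had values of 4.45, 4.0, and 4.85 on the ΔLepR arrays, against 4.31, 4.40, and 4.46 on the Slugfl/fl arrays. Its ΔLepR arrays spread widely on both sides of the narrow Slugfl/fl values (SD 0.42 and 0.074, n = 3 each), and the log2 fold change was 0.04. Ier2, Ier5, Gadd45b, and Gadd45g had log2 fold changes of -0.06, 0.19, -0.07, and -0.04, with adjusted p between 0.892 and 0.972 (limma).

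**Figure D2:**
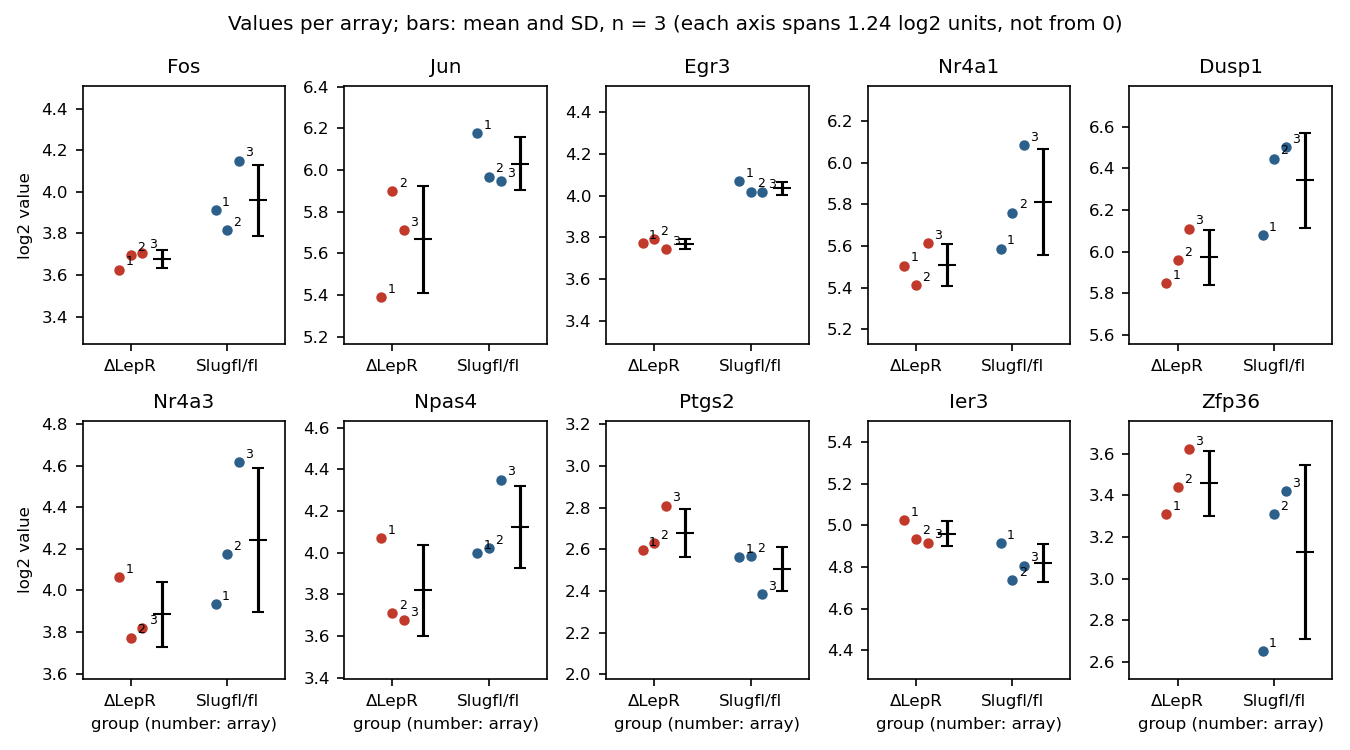
Log2 values of 10 genes on each array (points, numbered by array; red for ΔLepR, blue for Slugfl/fl), with the mean and SD of each group as bars (n = 3). Fos, Jun, and Egr3 (lower in ΔLepR) and Ptgs2 and Ier3 (higher in ΔLepR) do not overlap between groups. Slugfl/fl 3 is the highest point for Fos, Nr4a1, Dusp1, Nr4a3, and Npas4.

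Set beside the group difference, the single arrays held a pattern of their own. Slugfl/fl 3 was the highest of the 6 arrays for 14 of 40 genes (35.0%), against 16.3% of all genes, and the lowest for 1 (2.5%, against 17.4%). The 14 were Fos, Fosb, Junb, Jund, Egr2, Nr4a1, Nr4a3, Npas4, Srf, Klf4, Arc, Dusp1, Sik1, and Gadd45g, with at least 1 from each of the 7 role groups. ΔLepR 1 was the lowest for 13 (32.5%, against 15.9%), among them Fos, Jun, Egr1, Srf, Dusp1, and Sik1. Slugfl/fl 2 was the highest for 1, Dusp2 (2.5%, against 15.4%). These counts are descriptions of 6 arrays, since no array has a repeat.

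The mean deviation of the 40 genes from their own means was -0.05, -0.01, and 0.02 on the ΔLepR arrays, against -0.04, -0.02, and 0.11 on the Slugfl/fl arrays. The group difference in this level was -0.03, and the first 2 Slugfl/fl arrays lay among the ΔLepR arrays. On Slugfl/fl 3 the deviation was 0.36 for the NR4A genes, 0.21 for AP-1, and 0.13 for EGR, but 0.00 for the synaptic and secreted genes and 0.03 for growth arrest and RNA decay. All genes together deviated by 0.00 there.

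**Figure D3:**
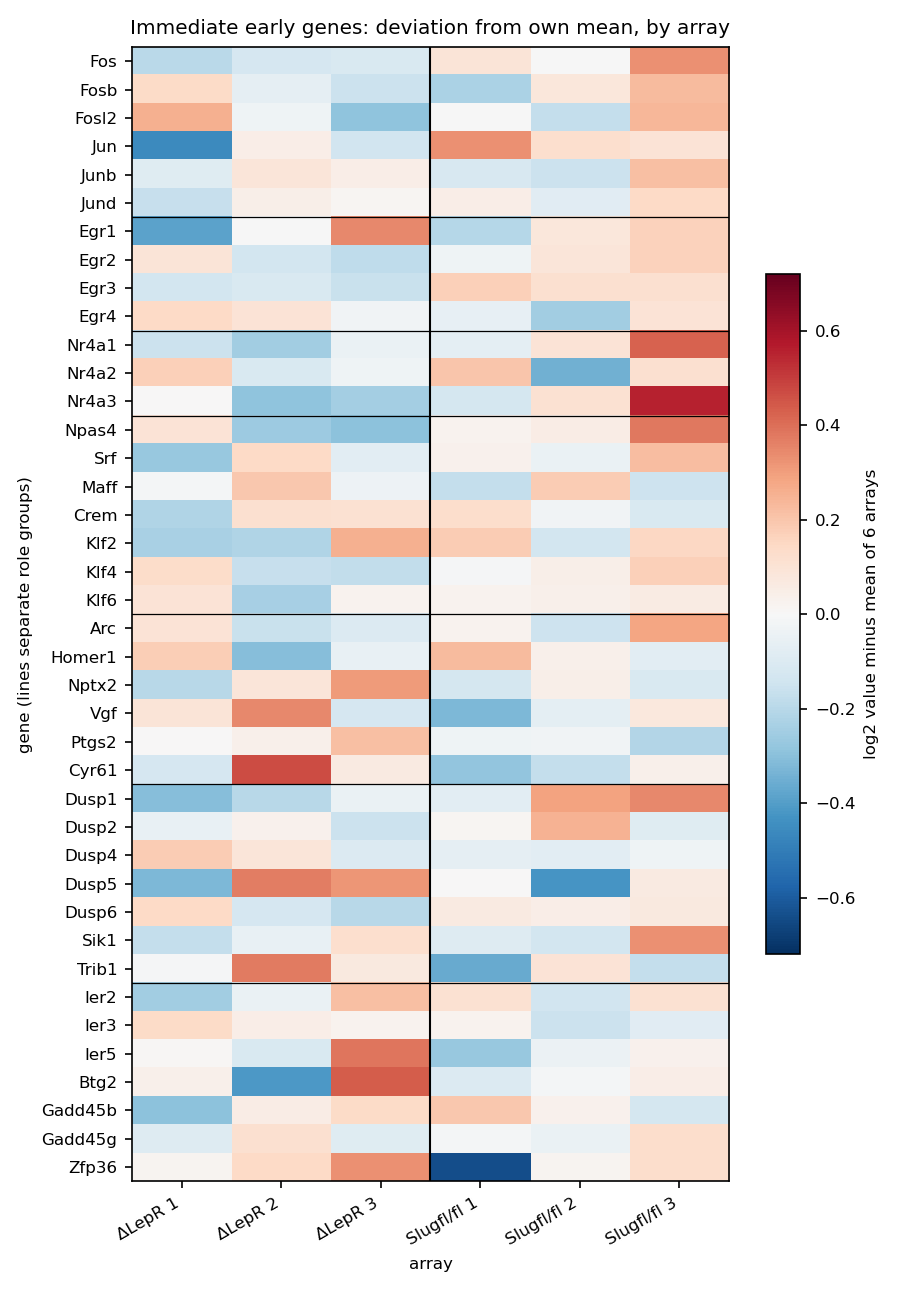
Deviation of each gene's log2 value from its mean over the 6 arrays (color, log2 units), with genes in rows by role and arrays in columns, ΔLepR left of the vertical line and Slugfl/fl right of it. The column of Slugfl/fl 3 is red for most AP-1, NR4A, and EGR genes, and the strongest red cells there are Nr4a3 and Nr4a1.

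**Figure D4:**
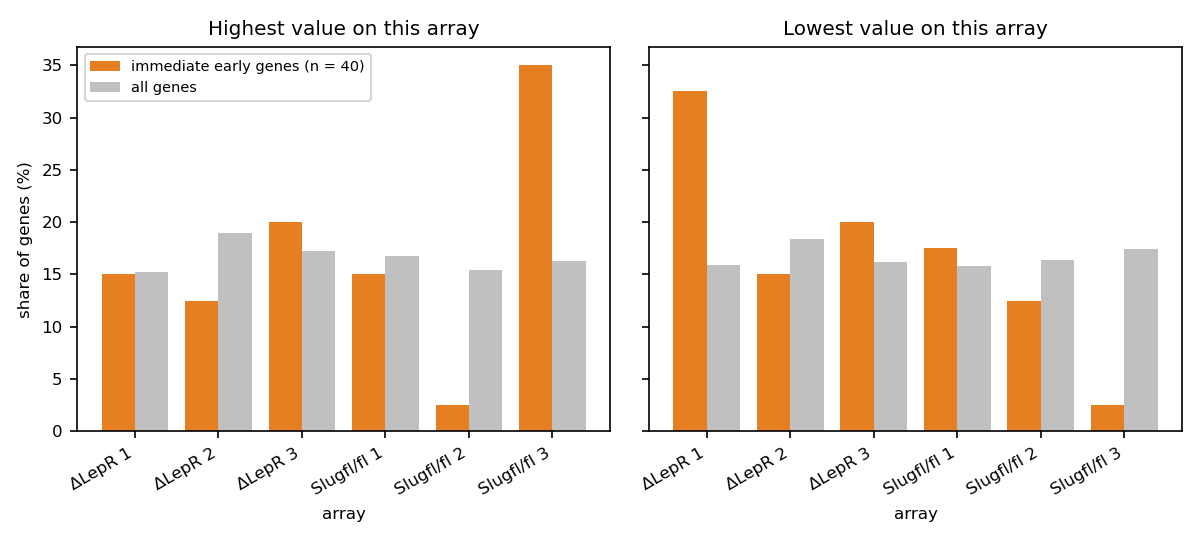
Share of genes (%) with their highest value (left) or lowest value (right) on each array, for the 40 immediate early genes (orange) and all genes (gray). Slugfl/fl 3 holds the highest value of 35.0% of the immediate early genes and 16.3% of all genes, and the lowest value of 2.5% and 17.4%.

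Other gene lists were read on the same array. The upstream signaling list (calcium channels, kinases, CREB, SRF cofactors, and MEF2 factors) had 22 of 27 genes measured, 0 called higher and 0 lower, and a median log2 fold change of -0.03. It was highest on Slugfl/fl 3 for 12 of 22 genes, among them Creb1, Crebbp, Ep300, and Mef2c, and its mean deviation there was 0.093, against -0.03 to -0.01 on the other 5 arrays. Creb1, the factor that binds the CRE, had values of 6.78, 6.71, and 6.82 on the ΔLepR arrays, against 6.97, 6.99, and 7.07 on the Slugfl/fl arrays, without overlap (log2 fold change -0.24, SE 0.092, adjusted p = 0.839, limma), a gene named after its values were seen.

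Thalamic markers were also highest on average on Slugfl/fl 3. All 6 of 6 were measured, above the median of all genes, and 0 passed the threshold. On that array 3 were highest and 1, Slc17a6, was lowest, at 8.49. Their mean level ran from 6.56 to 6.75 on the ΔLepR arrays, against 6.35 to 6.97 on the Slugfl/fl arrays, with the highest on Slugfl/fl 3 and the lowest on Slugfl/fl 1. Prkcd, a marker of thalamic relay neurons, had the widest range of the 6. It read 6.07, 5.38, and 5.95 on the ΔLepR arrays, against 5.31, 5.75, and 6.69 on the Slugfl/fl arrays. The 5 heat shock genes measured deviated by 0.10 on Slugfl/fl 3, and the 7 cortical and hippocampal markers by -0.06. The part of neighboring tissue in the pattern of Slugfl/fl 3 was not tested.

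Glucocorticoid response genes, some of which are induced with early genes in stress, had 6 of 6 measured. Of these, 2 were called higher (against 1.44% of all genes) and no gene lower. The 2 were Sgk1 (log2 fold change 0.43, SE 0.18, adjusted p = 0.839, limma) and Cdkn1a (0.59, SE 0.16, adjusted p = 0.743, limma). The groups overlapped for Sgk1, with 7.30 on Slugfl/fl 3 and 7.22 on ΔLepR 1. The mean deviation of the 6 genes was highest on ΔLepR 2, at 0.33, and was 0.00 on Slugfl/fl 3, so they did not share the order of the early genes. Endothelial (8 genes), mural and meningeal (8), microglial (5), striatal (4), and choroid plexus (4) markers had 0 genes called, and blood markers were not analysed here. Among these, mural and meningeal markers were highest on average on Slugfl/fl 3 (mean level 4.94 to 5.05 on the ΔLepR arrays, against 4.95 to 5.09 on the Slugfl/fl arrays), and so were microglial markers (5.17 to 5.32 on the ΔLepR arrays, against 5.31 to 5.36 on the Slugfl/fl arrays). Choroid plexus markers deviated by 0.15 there but were highest on ΔLepR 1, at 0.26 (4.24 to 4.61 on the ΔLepR arrays, against 4.08 to 4.50 on the Slugfl/fl arrays). The part of these cells in the pattern of Slugfl/fl 3 was not tested. Other marker lists did hold calls. Of 7 cortical and hippocampal markers, Neurod6 was called higher and Emx1 lower (adjusted p = 0.839 and 0.551, limma). Of 14 hypothalamic markers, Hdc was called higher and Avp lower (adjusted p = 0.743 and 0.773, limma). Of all genes 1.44% were called higher and 0.577% lower. The cortical and hippocampal markers deviated most on Slugfl/fl 1, by 0.24.

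A further list, of activity-response genes taken by name as delayed, was highest on average on a different array. How fast each of these genes responds was not tested, so the list may hold early genes as well. Of its 35 genes 32 were measured, with 1 called higher, Tac1, and 0 called lower, and a median log2 fold change of 0.04. Tac1, the precursor of substance P, read 6.57, 6.65, and 6.61 on the ΔLepR arrays, against 6.16, 6.39, and 6.14 on the Slugfl/fl arrays (1.30-fold, adjusted p = 0.743, limma). The groups did not overlap. ΔLepR 3 was the highest array for 12 of 32 of these genes, against 17.2% of all genes, with a mean deviation of 0.08 there. On Slugfl/fl 3 the deviation was -0.04, and it was the highest array for 2 of 32, Csrnp1 and Rasl11a. Bdnf, a classical late target, read 4.03, 3.98, and 4.18 on the ΔLepR arrays, against 3.90, 4.02, and 3.95 on the Slugfl/fl arrays, with overlap. Further members of the same gene families had 39 of 46 measured and 0 called in either direction, and Slugfl/fl 3 was the highest array for 9 of 39.

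Covariation over the 6 arrays was weak for the genes as a whole. The median Pearson's r over their 780 pairs was 0.040, against 0.000 over all pairs of genes, and 3.21% of their pairs reached 0.8, against 2.88%. With each group centred on its own mean the median was 0.072, and 6.03% reached 0.8, against 5.29% of all pairs. The median of Spearman's rho was 0.086, against 0.029. Without Slugfl/fl 3 the median r was -0.048, the only array whose removal turned its sign, and with any other array left out it lay between 0.048 and 0.075. The points of each pair share arrays and groups, so these values are descriptions.

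Families differed in this respect. The median r was 0.319 among the 6 AP-1 genes (0.309 centred within groups), 0.127 among the NR4A genes, and -0.177 among the EGR genes. Among kinase and phosphatase feedback genes it was -0.153. Of the 780 pairs, 25 reached an r of 0.8 or more and 15 lay at -0.8 or less. The highest were Egr2 with Klf4 (r = 0.975), Klf4 with Npas4 (0.960), and Crem with Gadd45b (0.955), and the lowest were Ccn1 with Homer1 (-0.948) and Dusp1 with Ier3 (-0.947). The pairs at the top crossed family lines, and they were picked from 780 by their value. Egr2, Klf4, and Npas4 all had means below the median of all genes.

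Covariation with Fos was closer than covariation among all pairs. The median r with Fos of the 39 other genes was 0.286, against -0.009 for all genes, and it was above 0 for 26 of 39, against 49.5% of all genes. With the groups centred the median was 0.348, against 0.002. None of the 39 reached an r of 0.9, as 0.81% of all genes did (174 genes). Nr4a1 was the closest (r = 0.876, exact permutation p = 0.0306, Spearman's rho = 0.771, exact permutation adjusted p over the 39 relations 0.463 and 0.668). It was the only one of the 39 with an unadjusted p under 0.05 for r, and 0 passed after adjustment.

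The 2 arrays farthest from the median of Fos were Slugfl/fl 3 and Slugfl/fl 1. With both left out, the middle one of the 39 values of r with Fos was that of Sik1, 0.038, against the median of 0.286 over all 6. The higher median r with Fos was thus not kept without those arrays. Only Slugfl/fl 2 was then left beside the ΔLepR arrays, so these r lean on 1 array and mix in the group difference. Leaving out the arrays where Fos varies most also tends to weaken r, and the same r over all genes was not calculated. Without those 2 arrays r with Fos was 0.786 for Nr4a1 and 0.977 for Dusp1 (0.779 over all 6, exact permutation p = 0.0653, rho = 0.829, p = 0.0583). For Nr4a3 it was 0.375, for Npas4 0.042, and for Arc -0.739, where all 6 arrays gave 0.791, 0.726, and 0.656, so r was lower for these 3 genes without those arrays. Egr3 had an r of 0.772 over all 6 arrays but -0.255 with the groups centred, so its relation to Fos lay between the groups and not within them. Junb, by contrast, had an r of 0.458 over all 6 arrays and 0.962 with the groups centred, and Sik1 had 0.700 and 0.934. Without the same 2 arrays the r without centring was -0.374 for Junb and 0.038 for Sik1. The centred r was not calculated without them, so how far it rested on them was not tested. Ptgs2 was the most opposed, at -0.775 (exact permutation p = 0.0972).

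**Figure D5:**
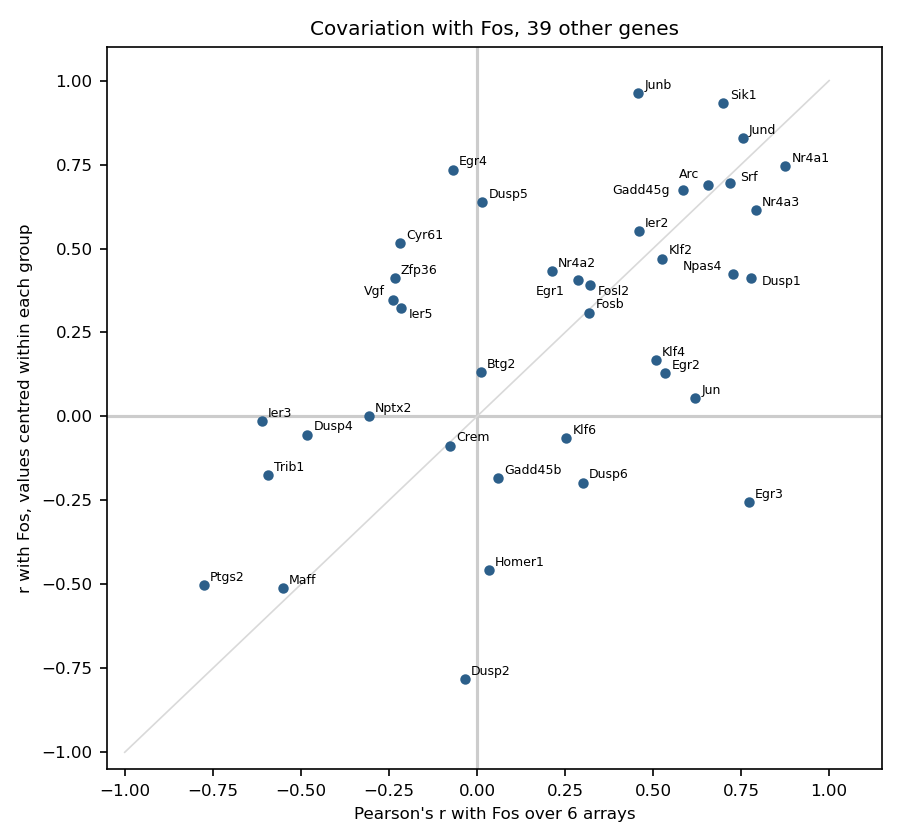
Pearson's r with Fos over the 6 arrays (horizontal) against r with both genes centred on their group means (vertical), 1 point for each of the 39 other genes, with a diagonal where both are equal. Nr4a1, Jund, and Sik1 lie at the upper right, Egr3 at the right but below 0, and Ptgs2 at the lower left.

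Among genes outside the list and brighter than the median of all genes, those most like Fos over the 6 arrays were Tsc2 (r = 0.993), Mgat5 (0.982), Exoc8 (0.980), Ccn3 (0.977), and Ahnak (0.977), named because their r was the highest. Tsc2 encodes a brake on mTOR signaling, Ccn3 a relative of Ccn1, and Ahnak a large scaffold protein. Ahnak read 4.14, 4.30, and 4.26 on the ΔLepR arrays, against 4.56, 4.38, and 4.72 on the Slugfl/fl arrays. Its order of arrays follows from its choice by likeness to Fos and is given as a description.

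The promoter motifs were also set beside the arrays. Of the genes with a promoter, 12 were highest on Slugfl/fl 3, and 10 of these held the CRE half-site, against 10 of the 18 that were highest on another array. The exceptions among the 12 were Jund and Gadd45g. Ptgs2, with its lowest value on that array, held the half-site as well. The array was singled out after the values were seen. The share over all genes highest on it was not calculated, and the difference between these counts was not tested.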

How the data were processed

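Hypothalamic RNA was measured on 6 arrays. The authors deposited 1 table of processed values, whose range of 0.90 to 12.43 was read as log2, since no source states the base. MAS5 is named in the submitters' processing notes with no step attached. How background, probe summary, and normalization were handled is not given in the sources used here, so no gene could be set against its background. Of 24663 rows, 21925 had 1 symbol, 818 several, and 1920 none in the platform annotation. Rows with 1 symbol were used, and the brightest row per gene left 21507 genes. Groups came from the genotype labels.

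Groups were compared with limma 3.58.1 (lmFit and eBayes, R 4.3.3) without covariates, with Benjamini-Hochberg adjustment over all genes, and by exact two-sided permutation tests for single values. Relations to Fos were tested over all 720 orders of the arrays. All measured members may be named. Full values were given for those that did not overlap, for Fos, Fosb, Junb, Egr1, Arc, Npas4, Nr4a1, and Dusp1, for the 6 with the widest range among members above the median of all genes, and, added later, for those that passed the threshold in any alternative. The members and lists were chosen with earlier results of these data known, and the lists serve only as description. Alternatives were quantile normalization, the methods' t-test, median centring, a robust prior with an intensity trend, the mean of a gene's rows, omission of dim genes, the replicate number as a block, and omission of each array.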

Additional observations from a re-analysis of the deposited data

How the results depend on the processing

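The count of early genes past the threshold was 0 higher and 0 lower under quantile normalization, the methods' t-test, median centring, a robust prior with an intensity trend, the mean of a gene's rows, and omission of dim genes. Replicate numbers did not pair the arrays. The correlation of same-numbered arrays, taken on deviations and not on the values themselves, was -0.003, -0.01, and -0.058. For arrays of other numbers it ran from -0.052 to 0.059. The fit with the replicate block called 1 gene higher, Zfp36, and 0 lower (1.62% and 0.642% of all genes). With 1 array left out, 0 to 3 genes were called higher and 0 to 2 lower. Without ΔLepR 1 these were Ccn1, Dusp5, and Trib1 (3 higher) and Nr4a3 and Npas4 (2 lower). They were Jun without ΔLepR 2, Dusp1 without ΔLepR 3, and Nr4a3 and Dusp1 without Slugfl/fl 1, all lower, and Trib1 without Slugfl/fl 2 and Zfp36 without Slugfl/fl 3, both higher. Calls also rose over all genes. With 1 array left out, 1.71% to 2.15% of all genes were called higher and 0.711% to 0.879% lower. Without ΔLepR 1 the shares were 2.15% and 0.874%. No early gene passed an adjusted p of 0.05 (limma) in any of these fits. Over all genes the methods' t-test called 156 higher and 62 lower, against 309 and 124 with limma. The sign of the log2 fold change turned in 1 alternative or more for Fosb, Junb, Egr1, Arc, and Btg2, and in none for the other 14 genes followed. The group difference of the 40 genes together was -0.04 after quantile normalization and after median centring, and -0.04 over the genes above the median of all genes, an alternative added after seeing the data. With 3 arrays against 3, a difference near the median standard error of 0.13 was not detectable, which does not show that it is absent.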
